A study of Drosophila melanogaster with 6 samples.

Results

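The regions described here are S3-only AGO2 peaks that lie beside an S2 peak: peaks listed for the Drosophila melanogaster line S3 that overlap no peak listed for the line S2 by 1 bp or more, and whose nearest border is 5000 bp or less from the nearest S2 peak on the same chromosome. There were 405 of them among 3159 S3 peaks. Of all S3 peaks, 1407 (44.5%) overlapped no S2 peak, and 28.8% of those 1407 (95% exact binomial interval 26.4 to 31.2%) were within the distance limit. They are called adjacent S3-only peaks below, and the nearest S2 peak of each is its S2 neighbour. The other 1002 S3-only peaks lay further away and 1752 S3 peaks overlapped an S2 peak.

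S2 and S3 are Schneider's embryonic cell lines of Drosophila, which were grown here in the same serum-supplemented insect medium, with no treatment or genetic change given in the labels. Chromatin immunoprecipitation with the monoclonal antibody 9D6 against Argonaute 2, followed by sequencing (ChIP-seq), gave 1 library and 1 list of peaks per line. The series has 6 samples, and its S2 ChIP with a polyclonal antibody and its 3 input libraries were not analysed here. With 1 library per line no value has a replicate error, no test compares the lines, and the intervals given cover counting of peaks only.

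Argonaute 2 (AGO2) is the Argonaute protein that Drosophila loads with small interfering RNAs and that cuts the RNAs they match. The protein has also been found on chromatin, and the series concerns its place at insulators, the boundary elements bound by CTCF and CP190 that separate enhancers and promoters of neighbouring regulatory domains. Insulators often occur close to other regulatory elements, so AGO2 sites can lie a short way apart along a chromosome. A peak list divides such a stretch into intervals with borders, and a site next to an AGO2 site of the other line can be a separate interval or the far end of the same stretch.

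The members were chosen by the measured peak positions of both lists, so the gaps, the absence of overlap and the widths that follow are given as descriptions, with no test. The authors' false discovery rate (FDR), read as a percent, was the only strength given for a peak: a lower FDR marks a peak that stood out more from the background of its own library. Read depth is unknown for both libraries. The S3 list was longer than the S2 list (3159 against 2084 peaks), a deeper library can give more peaks, and the part of depth in the number of adjacent S3-only peaks was not tested. Positions are on build dm3, counted from 1. No annotation of that build was used, so a region is given by its position.

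Many adjacent S3-only peaks lay close to the border of their S2 neighbour. The gap, the number of bases between the facing borders, ranged from 7 to 4969 bp with a median of 1362 bp (quartiles 219 and 3254). After peaks closer than 500 bp were joined in both lists the median was 2410 bp, and it was 134 bp when S3 peaks overlapping S2 by less than 50% of their length were also taken in, so it depended on how stretches were divided. The gap as listed was 250 bp or less for 111 peaks (27.4%) and 1000 bp or less for 179 (44.2%). Beyond that the numbers per kb were lower, with 68 peaks at over 1000 to 2000 bp, 42 at over 2000 to 3000 bp, 57 at over 3000 to 4000 bp and 59 at over 4000 to 5000 bp. Outside the limit, 37 S3-only peaks had a gap of over 5000 to 6000 bp and 35 one of over 6000 to 7000 bp. Adjacent peaks lay on either side of the neighbour, 215 (53.1%) at the higher and 190 at the lower coordinate.

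**Figure D1:**
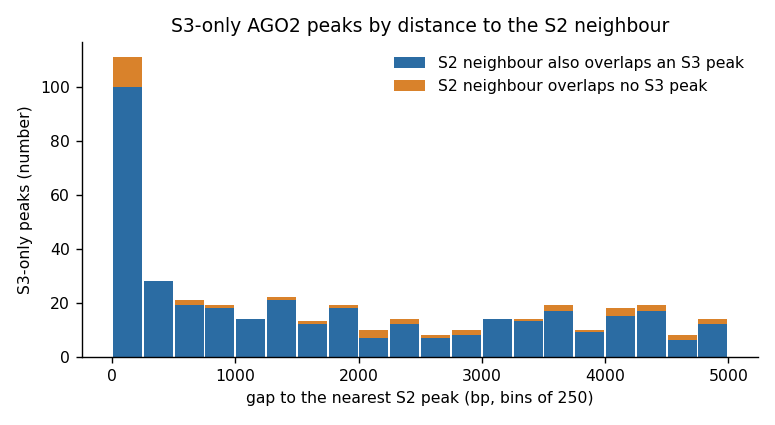
Number of adjacent S3-only peaks (vertical axis) by gap to the S2 neighbour in bp (horizontal axis, bins of 250 bp); the colours show whether the S2 neighbour itself overlaps an S3 peak. The first bin holds 111 of the 405 peaks, and 367 of the 405 have a neighbour that is also an S3 site.

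The closest cases show how near a miss can be. On 3R, an S3-only peak of 1154 bp at chr3R:12724017-12725170, listed at an FDR of 0, ended 7 bp before an S2 peak of 673 bp at chr3R:12725178-12725850. That S2 peak had an overlapping S3 partner at chr3R:12725173-12725889, which began 2 bp after the S3-only peak ended. The S3 list thus placed 2 peaks end to end where the S2 list held the right-hand one alone. On 3L, an S3-only peak of 743 bp at chr3L:7801620-7802362 ended 12 bp before the S2 peak at chr3L:7802375-7803350, whose S3 partner at chr3L:7802376-7803335 had nearly the same borders. Elsewhere on 3R, a peak of 816 bp at chr3R:13993241-13994056 lay 12 bp from a neighbour of 2239 bp whose S3 partner measured 2224 bp. Another 3R peak, of 1460 bp at chr3R:5055686-5057145, began 8 bp after its neighbour ended and had a higher FDR of 1.3%. The last of the 5 closest differed in form: on X, a peak of 706 bp at chrX:13170969-13171674 was 7 bp from an S2 peak of 1570 bp, but the S3 partner of that S2 peak started 526 bp inside the S2 border, so that 533 bp separated the S3 peaks.

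The peaks next to the limit were as follows. The 3 members with the largest gaps were a peak of 555 bp on X at 4969 bp with an FDR of 0.16%, one of 1011 bp on 3L at 4958 bp with an FDR of 0.14%, and one of 598 bp on X at 4957 bp with an FDR of 3.19%. The 3 S3-only peaks just outside measured 928 bp on 3R at 5011 bp (FDR 0.16%), 1318 bp on 2R at 5081 bp (FDR 0.63%) and 1438 bp on 2L at 5119 bp (FDR 0.06%). All 6 had an S2 neighbour that overlapped an S3 peak.

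The S2 neighbours were themselves S3 sites in most cases. For 367 of the 405 adjacent S3-only peaks (90.6%, 87.3 to 93.3%) the neighbour overlapped an S3 peak, and for 38 it was found in S2 alone. Of all S2 peaks, 85.7% overlapped an S3 peak, so the share at the neighbours was 4.92 percentage points above that background. Counted once each, 319 of 354 distinct neighbours (90.1%, 86.5 to 93.0%) and 1467 of the 1730 other S2 peaks (84.8%, 83.0 to 86.5%) overlapped an S3 peak. Under the rule of 1 bp most adjacent S3-only peaks thus lay next to a site present in both lists, a share close to that of all S2 peaks. With the rule that 50% of an S3 peak must be covered, which takes in partly overlapping peaks, the share was 48.6%. The background of 85.7% holds for the rule of 1 bp only, and none is given here for the 50% rule. The neighbours were close to other S2 peaks in FDR: their median FDR was 0.12%, as for the other S2 peaks, and 21.5% of them against 23.6% were listed at an FDR of 0. Their median width was 1161.5 bp against 1199 bp.

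Where the neighbour was shared, the overlapping S3 peak, called the S3 partner, mostly ended near the S2 border on the side of the adjacent peak. In 229 of the 367 cases (62.4%, 57.2 to 67.4%) the border of the S3 partner that faced the adjacent peak was within 100 bp of the S2 border. It reached more than 100 bp past the S2 border towards the adjacent peak in 107 cases (29.2%) and stopped more than 100 bp short of it in 31 (8.45%). Among the 128 cases with a gap under 500 bp, the borders were within 100 bp of each other in 101 (78.9%, 70.8 to 85.6%). Among the 239 with a gap of 500 bp or more they were in 128 (53.6%, 47.0 to 60.0%). Peaks of the S3 list did not overlap each other, so a short gap limits how far the partner can reach past the S2 border. The difference between these shares is thus partly built in. The median distance from the adjacent peak to the S3 partner was 1016 bp (quartiles 158.5 and 3012).

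Many adjacent S3-only peaks belonged to a run of closely spaced S3 peaks. Nearness to an S2 peak was part of the rule and most S2 peaks overlap an S3 peak, so nearness to another S3 peak is largely built in and the shares here are descriptions. Another S3 peak was closer than 500 bp to 185 of them (45.7%, 40.8 to 50.7%), against 29.8% of all S3 peaks, 36.6% of S3 peaks overlapping S2 and 11.4% of S3-only peaks further away. In 150 cases (37.0%) the run, with peaks chained at gaps under 500 bp, held an S3 peak that overlapped S2. Such runs were 2 to 4 peaks long and, counted once per adjacent peak, had a median total length of 3371 bp. These 150 would become part of a shared region if closely spaced peaks were read as 1 site, and after joining such peaks in both lists 240 adjacent S3-only regions were left in place of 405. A further 220 adjacent peaks had no S3 peak within 500 bp, and 35 were in runs of 2 peaks that held no shared peak.

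Some S2 peaks had several S3-only peaks around them. The 405 adjacent peaks fell to 308 neighbours with 1, 41 with 2 and 5 with 3 such peaks, and 14 neighbours had them on both sides. On 3R, the S2 peak of 875 bp at chr3R:3793446-3794320 followed 3 S3-only peaks of 1662, 977 and 1961 bp, at gaps of 3692, 2299 and 227 bp, all at an FDR of 0. With the S3 partner of 936 bp they made a run of 4 S3 peaks, and the next S2 peak before them was 150.7 kb away. On 2R, the S2 peak of 718 bp at chr2R:4556039-4556756 had S3-only peaks of 1411 and 1055 bp before it and one of 2725 bp after it. The first pair was at an FDR of 0 and the last at 0.11%. Another 2R neighbour, of 1353 bp at chr2R:2028472-2029824, had a peak of 983 bp on one side and peaks of 1370 and 2436 bp on the other. Their FDR values were 0, 0 and 2.14%. The 5 neighbours tie at 3 such peaks, and those described were picked by lower FDR, so their FDR of 0 follows from that choice. Those left out, on 2R and X, had peaks at 0.06, 0.57 and 0.12% and at 0.16, 0.11 and 4.5%. Drawings of 6 S2 neighbours show these and other arrangements, with the 3R neighbour and the first 2R neighbour named here among them.

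**Figure D2:**
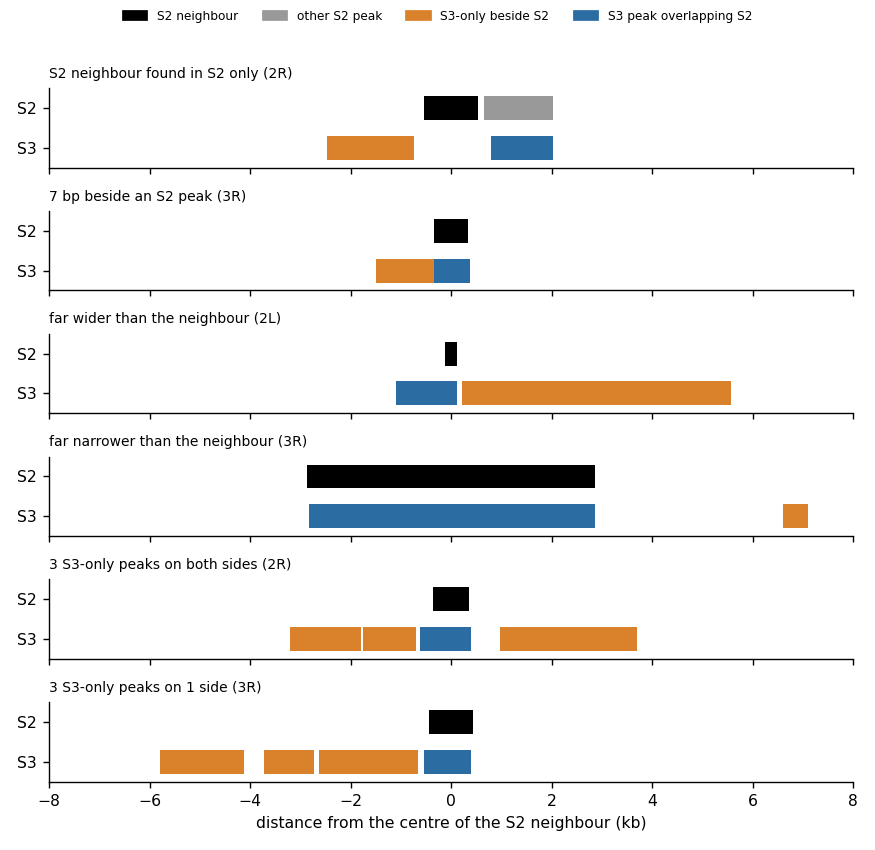
Peaks of the S2 list (upper row of each panel) and the S3 list (lower row) around 6 S2 neighbours, by distance in kb from the neighbour's centre; black marks the neighbour, orange the adjacent S3-only peaks and blue the S3 peaks that overlap S2. In 5 panels the neighbour has an S3 partner with S3-only peaks outside it; in the top panel the neighbour is in S2 alone.

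The 38 adjacent peaks whose neighbour was in S2 alone formed a different arrangement, in which each list held a peak that the other lacked. They involved 35 distinct S2 peaks, and in 30 of the 38 cases each peak was the nearest of the other list. Of the 38, 6 (15.8%, 6.02 to 31.3%) had an S3 peak overlapping S2 within 5 kb. That share is largely set by the split, because the nearest S2 peak of each overlapped no S3 peak. The median gap was 2106.5 bp, and 11 of the 38 (28.9%) had a gap of 250 bp or less, beside 100 of the 367 (27.2%) with a shared neighbour. The S3-only peak was the wider one in 26 of 38 cases (68.4%, 51.3 to 82.5%), beside 180 of the 367 (49.0%) with a shared neighbour. Per adjacent peak, neighbours in S2 alone had a median width of 1097.5 bp, against 1174 bp for shared ones. Under a rule of 1 bp narrow peaks meet the other list less often, so these widths are tied to the split, and the difference was not tested. Counted once per adjacent peak, the S2 peaks in these pairs had a median FDR of 0.61%, against 0.11% for the neighbours shared with S3. The FDR contrast follows the split by overlap. No value for all S2-only peaks is given here, so whether it is particular to these pairs is not known. Of these 38 S3-only peaks, 7 were at an FDR of 0, beside 102 of all 405 adjacent peaks (25.2%) and 48.5% of all S3 peaks. The 3 widest of the 7, named here because of their low FDR, were on 2R. One of 1733 bp at chr2R:6361845-6363577 (FDR 0) lay 197 bp before an S2 peak of 1069 bp with an FDR of 1.71%. Another of 1296 bp at chr2R:14195203-14196498 (FDR 0) lay 2361 bp from an S2 peak of 549 bp with an FDR of 0.14%. The third, of 1077 bp at chr2R:11022456-11023532 (FDR 0), was 55 bp from an S2 peak of 1902 bp with an FDR of 0.08%.

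In width the adjacent S3-only peaks were as often wider as narrower than their S2 neighbour. Their median width was 1220 bp (quartiles 789 and 1841, range 135 to 7588), beside 1163 bp for the neighbours. The ratio of the widths had a median of 1.01 (quartiles 0.58 and 1.67), and 206 of the 405 (50.9%, 45.9 to 55.8%) were the wider peak. More than 2 times the neighbour's width was reached by 77 peaks (19.0%), and less than 0.5 times by 75 (18.5%). The width of the adjacent peak followed that of the neighbour only loosely, with a Spearman rho of 0.18 across the 405 pairs, whereas S3 partners and the same neighbours had a rho of 0.65 across 367. Both are descriptions across sites of the same pair of libraries, and partners overlap the neighbours while adjacent peaks by rule do not.

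**Figure D3:**
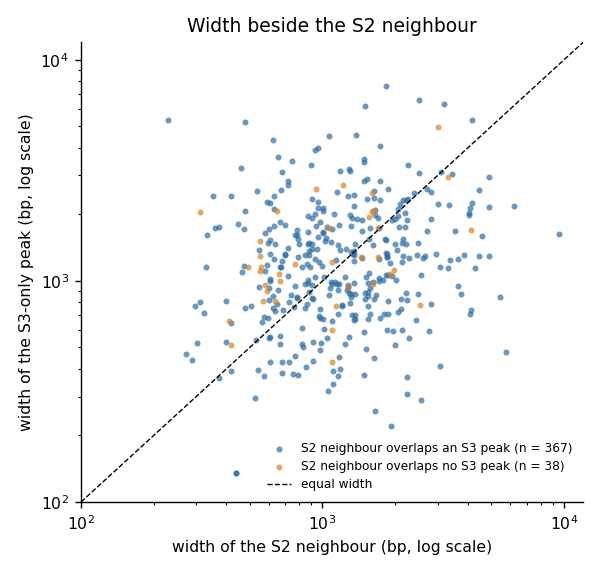
Width of each adjacent S3-only peak (vertical, bp, log scale) against the width of its S2 neighbour (horizontal, bp, log scale), with a dashed line at equal width. The 405 points lie on both sides of the line, 206 of them above it, and the 38 with a neighbour found in S2 alone are in orange.

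The extremes of the ratio show how varied the pairs were. On 2L, an S3-only peak of 5367 bp at chr2L:20917711-20923077 (FDR 0.57%) lay 94 bp after an S2 peak of 230 bp, a ratio of 23.3. On 2R, a peak of 5251 bp at chr2R:17272056-17277306 (FDR 0.47%) was 4835 bp from an S2 peak of 476 bp, and its ratio was 11.03. The third was on X, where a peak of 3249 bp at chrX:8007058-8010306 was 7.05 times as wide as its neighbour of 461 bp. In the opposite direction, a peak of 479 bp at chr3R:14074894-14075372 stood 3750 bp from an S2 peak of 5729 bp, whose S3 partner of 5694 bp nearly matched it. A pair of narrow peaks on X, of 290 bp at chrX:11604495-11604784 and 221 bp at chrX:18257566-18257786, had ratios of 0.113 and 0.115.

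Against the S3 partner of the same neighbour, which is on the same FDR and width scale, the adjacent peak had the higher FDR and the smaller width more often than not. Its FDR was the higher in 251 of 367 cases (68.4%, 63.4 to 73.1%), equal in 87 and lower in 29, and 81 of the equal cases had both peaks at an FDR of 0. The partner was at an FDR of 0 in 282 cases (76.8%). The adjacent peak was narrower than the partner in 227 cases (61.9%, 56.7 to 66.8%), with a median width of 0.80 times the partner's. Counted once per adjacent peak, the partners had a median width of 1542 bp and the adjacent peaks beside them 1225 bp. The 367 cases involved 320 distinct partners. A partner overlaps S2 by rule and an adjacent peak does not. S3-only peaks further away also differed from S3 peaks overlapping S2. Their median FDR was higher (0.21% against 0) and their median width smaller (1224.5 against 1462 bp). The higher FDR and smaller width beside the partner thus go with the split by overlap and are descriptions only.

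In median width and FDR, adjacent S3-only peaks were closer to S3-only peaks further away than to shared peaks. Their median width of 1220 bp compared with 1224.5 bp for S3-only peaks over 5 kb away and 1462 bp for S3 peaks overlapping S2. Their median FDR was 0.16% (quartiles 0 and 0.57), against 0.21% and 0. An FDR of 0 was listed for 102 of them (25.2%, 21.03 to 29.7%), for 21.1% (18.6 to 23.7%) of those further away and for 69.5% (67.3 to 71.7%) of shared peaks, where the background over all S3 peaks was 48.5%. Peaks of 3000 bp or more made up 6.91%, 10.3% and 15.2% of the 3 sets. Under a rule of 1 bp wide peaks meet the other list more often, so the lower width of both S3-only sets is tied to how they were chosen. Both sets were also chosen for lacking an overlap with S2. Their likeness in FDR and its contrast with shared peaks are therefore given as descriptions of that split.

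**Figure D4:**
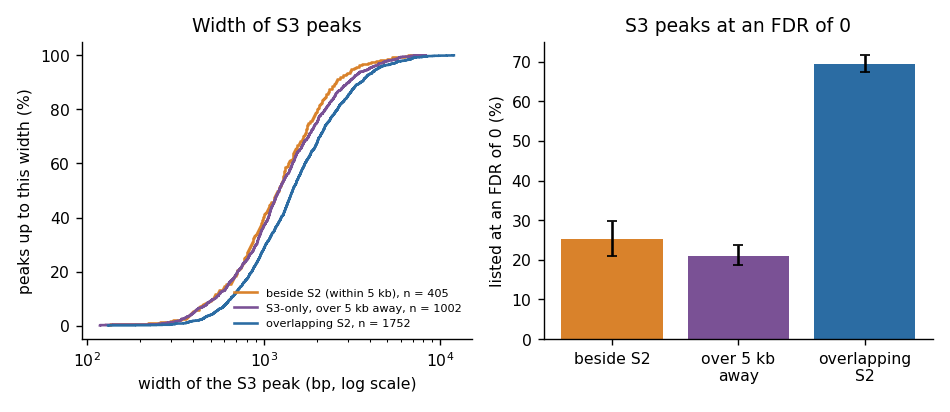
Left, cumulative share of S3 peaks (%) by width (bp, log scale) for adjacent S3-only peaks, S3-only peaks over 5 kb away and S3 peaks overlapping S2; right, share of each set listed at an FDR of 0 (bars, %) with 95% exact binomial intervals. The adjacent and the distant S3-only peaks run close together, at 25.2% and 21.1% with an FDR of 0, and the shared peaks stand at 69.5%.

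Within the adjacent set the FDR varied little with distance, and the width somewhat more. The median FDR was 0.21% for gaps up to 250 bp and 0.15% for gaps over 4000 bp, and across the 405 peaks gap and FDR had a Spearman rho of -0.04. Median width was lowest, at 921 bp, for the 28 peaks with gaps over 250 to 500 bp and highest, at 1577 bp, for the 57 with gaps over 3000 to 4000 bp. It was 1151 bp for gaps up to 250 bp, 1056.5 bp for gaps over 500 to 1000 bp, 1241 bp over 1000 to 2000 bp, 1308.5 bp over 2000 to 3000 bp and 1277 bp over 4000 bp, with a rho of 0.13 for gap and width. The share with a shared neighbour was 92.1% (86.3 to 96.0%) for gaps under 500 bp and 88.1% (81.3 to 93.0%) for gaps over 2500 bp.

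The 102 adjacent peaks at an FDR of 0 had a median width of 1321.5 bp (quartiles 971 and 1866.75, range 290 to 4518). The median was 1396 bp for S3-only peaks further away and 1519 bp for shared peaks at the same FDR. The 102 tie in FDR, so those named here were picked by width, and their breadth follows from that choice. The broadest lay on 2R at chr2R:3916469-3920986, measured 4518 bp and stood 4048 bp from an S2 neighbour of 1067 bp. The next were a peak of 3978 bp at chr3R:19030714-19034691, 3335 bp from its neighbour, and one of 3630 bp at chrX:19744692-19748321, 1732 bp from its neighbour. Each of these 3 was over 4 times as wide as its S2 neighbour and had no other S3 peak within 500 bp. On 3L, a peak of 3458 bp at chr3L:16792507-16795964 lay 2482 bp before its neighbour. The fifth, of 3220 bp at chr3R:14740018-14743237, was 483 bp from its neighbour in a run of 4 S3 peaks.

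Adjacent S3-only peaks were found on every arm. X carried 115 of them (28.4%, 24.1 to 33.1%), 3R 92, 3L 73, 2R 69, 2L 55 and the small chromosome 4 a single one. The share of an arm's S3-only peaks that lay beside an S2 peak was 27.0% on 2L, 29.5% on 2R, 27.3% on 3L, 27.5% on 3R and 31.7% (26.9 to 36.7%) on X, near the 28.8% of all arms. In relation to S2 peaks there were 23.7 adjacent S3-only peaks per 100 S2 peaks on X, 20.3 on 2R, 20.2 on 3R, 16.9 on 3L, 15.3 on 2L and 8.33 on chromosome 4, where there were 12 S2 peaks. X held 24.8% of S3-only peaks further away and 25.01% of all S3 peaks, values inside the interval of its share here. Among the 5 large arms, peaks on X were the narrowest, at a median of 890 bp, beside 1370 bp on 2R, 1316.5 bp on 3R, 1183 bp on 2L and 1170 bp on 3L. That order followed the whole S3 list, whose medians were 1018.5 bp on X and 1740 bp on 2R.

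The arms also differed in what the neighbours were and in the FDR. On 3R the S2 neighbour overlapped an S3 peak for 90 of 92 adjacent peaks (97.8%, 92.4 to 99.7%), whereas on 2L it did for 44 of 55 (80.0%, 67.03 to 89.6%). Of all S2 peaks, 86.4% on 3R and 84.1% on 2L overlapped an S3 peak, so the arms differed less in that background. An FDR of 0 was listed for 36 of the 92 adjacent peaks on 3R (39.1%, 29.1 to 49.9%) and for 20 of the 115 on X (17.4%, 11.0 to 25.6%), beside 50.2% and 43.4% of all S3 peaks on these arms. These arms were picked out after the values were seen, and the differences were not tested. On chromosome 4, the only member was a peak of 513 bp at chr4:575374-575886 with an FDR of 4.64%, 1785 bp before an S2 peak of 2005 bp.

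**Figure D5:**
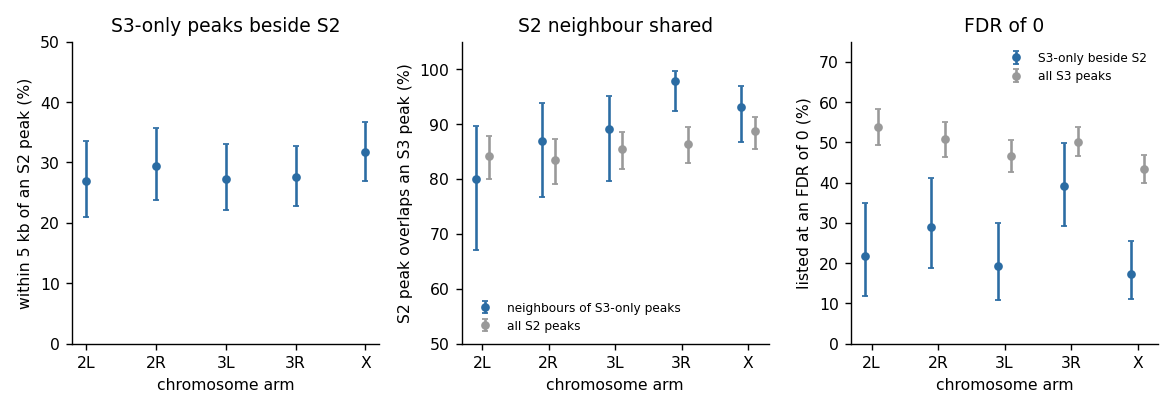
Values by chromosome arm with 95% exact binomial intervals. Left, share of S3-only peaks within 5 kb of an S2 peak (%). Middle, share of adjacent S3-only peaks whose S2 neighbour overlaps an S3 peak (blue, axis from 50%), beside the share of all S2 peaks that do (grey). A neighbour of several adjacent peaks counts once for each in blue. Right, share listed at an FDR of 0 for adjacent S3-only peaks (blue) and all S3 peaks (grey). The left values are between 27.0% and 31.7%, and the blue value on 3R in the middle is 97.8%. At an FDR of 0 the adjacent peaks are below all S3 peaks, a set that includes the shared ones, on each arm drawn.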

How the data were processed

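AGO2 ChIP-seq peaks of 1 S2 and 1 S3 library (antibody 9D6) were used. The build dm3, MACS 1.3.7.1 and Bowtie 0.12.5 are listed, with no roles, in the submitters' processing notes. The authors deposited 1 list per library, not pooled, with an FDR per peak that is read here as a percent, from the track lines in the file headers, which name an FDR of 5%, and from the values. Depth, filters and the background input: not given in the sources used here. FDR values of the S2 and S3 lists are not on 1 scale.

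Overlaps, gaps and nearest peaks were computed in Python 3.11.15 using pandas 2.3.3 and numpy 2.4.6, intervals with scipy 1.17.1 and figures with matplotlib 3.10.9. A shared peak overlapped the other list by at least 1 bp. Shares have exact binomial (Clopper-Pearson) intervals at 95%, which cover counting error only. The code was checked on simulated lists with known gaps: 2084 of 2084 simulated peaks were recovered.

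The members, lists and rules were chosen with earlier results of these data known. Peaks named are the 5 with the lowest FDR (ties by width), the 5 smallest gaps and 3 on each side of the limit. The 3 largest and 3 smallest width ratios and the 3 S2 peaks with most members (ties by lower S3 FDR) were also named. So were the 3 lowest-FDR members beside an S2-only peak, and those on chromosome 4. No dm3 genome or annotation was used, so no sequence or gene is given. The alternatives were other limits, overlap rules, FDR limits and joined peaks.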

Additional observations from a re-analysis of the deposited data

How the results depend on the processing

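Of 42 values recomputed under 6 alternatives, 20 stayed within 1.5 times the count or inside the 95% interval of the value given (exact binomial for shares, order statistics for medians), and 22 moved. A limit of 2500 bp gave a share of 19.3% of S3-only peaks and a median gap of 453 bp, and one of 10000 bp gave 42.1% and 3099 bp, both by construction. Counting as shared only S3 peaks covered by 50% or more gave 671 adjacent peaks (40.1%) with a median gap of 134 bp, a median width of 1621 bp, a width ratio of 1.71 and a shared neighbour in 48.6%. This set takes in partly overlapping peaks. With an FDR of 1% or less in both lists the share was 25.9% and the median width 1297 bp. The S3 peaks at an FDR of 0 gave 102 adjacent peaks, 32.6% of their S3-only peaks, with a median width of 1321.5 bp, 19.6% on X and a shared neighbour in 79.4%; when S3 partners of any FDR were counted, the last share was 93.1%. Joining peaks closer than 500 bp gave 240 adjacent regions (20.4%), a median gap of 2410 bp, a width ratio of 0.855 and a shared neighbour in 87.1%. No share for all S2 peaks is given under the 50% rule, the FDR limits or joining. The shared-neighbour values of 48.6, 79.4 and 87.1% thus have no background here. The share on X stayed inside its interval in the other 5 settings. Unknown depth limits every count. No paired analysis was possible because each line has 1 library.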

Other observations

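Of the 405 adjacent S3-only peaks, 215 shared a 100 kb window with another. Adjacent peaks with the same S2 neighbour lie close together by rule, and no share for other S3 peaks is given here, so the number is a description only. Of the 100 kb windows that held any, 190 held 1, 75 held 2, 12 held 3, 6 held 4 and 1 held 5. The window with 5 was at 18.0 to 18.1 Mb on 3L, where the lists held 12 S3 and 7 S2 peaks. Neighbouring windows at 11.6 to 11.7 and 11.7 to 11.8 Mb on X held 4 each, with 8 and 9 S3 peaks beside 3 and 4 S2 peaks. On 3R between 12.7 and 12.8 Mb, 3 of 14 S3 peaks were adjacent S3-only peaks, all at an FDR of 0, with gaps of 7, 196 and 3398 bp. These windows were looked at after the data were seen and no test was made.

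X held a larger part of the adjacent S3-only peaks at middle distances. It carried 50 of the 132 with gaps of 500 to 2500 bp (37.9%, 29.6 to 46.7%), 35 of 139 below that (25.2%, 18.2 to 33.2%) and 30 of 134 above it (22.4%, 15.6 to 30.4%). The difference was noticed in the data and was not tested.

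From the S2 side, of the 298 S2-only peaks, 103 lay within 5 kb of an S3 peak, and the nearest S3 peak was shared for 69 of them (67.0%) and S3-only for 34. Over all S3 peaks, 55.5% were shared. From the S3 side, as given above, the neighbour was shared for 90.6% of adjacent peaks, beside 85.7% of all S2 peaks. Each share thus has a background of its own, and they cannot be set against each other.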
